A study of Mus musculus with 15 samples.

Results

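The 52 cell cycle and mitosis genes described here were taken by name as a list of cyclins, kinases, replication and spindle genes, 52 of the 25382 genes in the count table, and all of them were counted and tested. They comprise 22 genes that act in G1, at the entry into S phase or during S phase (G1/S) and 30 that act mainly in G2 or mitosis (G2/M), a division made from their known roles. The libraries came from primary tumours formed in mice, labelled Nod/Skid, by MDA-MB-231, a human triple-negative breast cancer line that here carried GFP and luciferase. The cells behind the tumours had first been separated by the shear of a flowing liquid that they withstood. There were 6 libraries from tumours of weakly adherent cells (shear of 10 dyn per square centimetre), 4 from tumours of strongly adherent cells (50 dyn per square centimetre) and 5 from tumours of unsorted cells that saw no shear. Tumours were dissociated, and mRNA of the bulk cells was sequenced, so a smaller share of dividing cells and less of an mRNA in each cell cannot be told apart.

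The titles also carry a number (4, 5, 6, 7-8, 9 or 10) whose meaning the labels do not give, and a library is called below by adhesion group and number. Numbers 4, 5, 6 and 9 occur in all groups, 7-8 in the weakly adherent and unsorted groups, and 10 in the weakly adherent group alone. Whether each library is a different animal is not stated, so the tests measure the spread between these libraries, which may be technical. Total counts ran from 30372619 to 45434799 per library. Values are CPM, counts divided by the scaled total of the library, and they are compared between libraries and not between genes, since no transcript lengths were used.

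A dividing cell commits to replication when D-type and E-type cyclins with their kinases release the E2F factors, which switch on genes for origin licensing, the replicative helicase and nucleotide supply. A later programme, driven in part by the factor FOXM1, supplies cyclin B, the mitotic kinases, the spindle checkpoint, kinetochores and spindle motors. In bulk tumour RNA both programmes are commonly read as a measure of how many cells are cycling, and triple-negative breast cancers are known for high levels of both.

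Both markers of cycling cells were present in every library. MKI67, which encodes the Ki-67 antigen, ran from 188 through a median of 205 to 259 CPM in the weakly adherent libraries. It stood at 191, 341, 152 and 251 CPM in strongly adherent libraries 4, 5, 6 and 9, and at 215, 135, 260, 194 and 197 CPM in unsorted libraries 4, 5, 6, 7-8 and 9. The groups overlapped, and the strongly adherent group alone spanned from the second lowest to the highest value of the 15. TOP2A, a topoisomerase that untangles replicated chromosomes, ran from 256 through 303 to 322 CPM in weakly adherent libraries, stood at 282, 414, 186 and 295 CPM in strongly adherent libraries 4, 5, 6 and 9, and at 286, 271, 293, 239 and 277 CPM in unsorted libraries 4, 5, 6, 7-8 and 9. Its highest and its lowest value were both strongly adherent, in libraries 5 and 6. Every one of the 52 genes had counts in every library, the fewest being 54 for E2F2 in strongly adherent library 6.

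**Figure D1:**
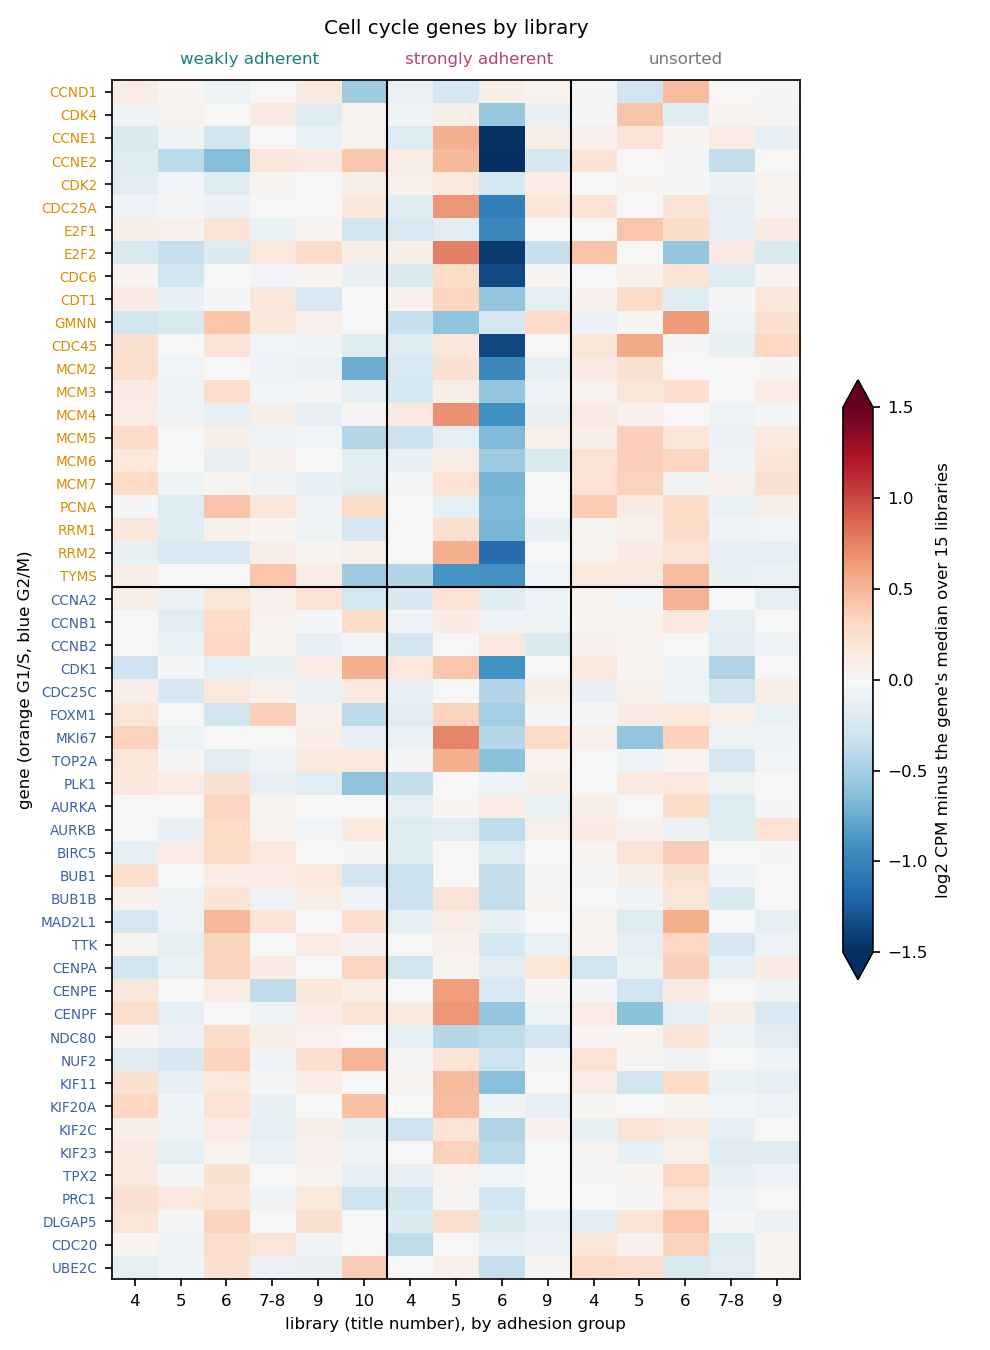
Log2 CPM of each of the 52 genes (rows, G1/S above the line and G2/M below it) in each of the 15 libraries (columns, by adhesion group and title number), as the difference from that gene's median over all libraries. The column of strongly adherent library 6 is blue in most G1/S rows, and 20 of the 22 G1/S rows have their lowest value there.

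Strongly adherent library 6 stood apart in these genes. It is described before the comparisons, as is strongly adherent library 5, which held the highest value of many members. Library 6 held the lowest of the 15 values for 20 of the 22 G1/S genes and for 13 of the 30 G2/M genes. Over all genes tested it was lowest for 14.3%. Relative to the median of the other 14 libraries its values were lower by a median log2 difference of -0.82 over the G1/S genes and -0.30 over the G2/M genes, while the median over all genes tested was -0.00. The library was singled out by earlier results of these data, so these values describe it and carry no test. Its total count was 38505214, within the range of the others.

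E-type cyclins and the factors at the restriction point were among the lowest values of that library. CCNE1, which encodes cyclin E1, stood at 6.47 CPM in strongly adherent library 6, against a median of 18.3 CPM and a highest value of 26.1 CPM in the other 14, all of which lay above it. Cyclin E2 (CCNE2) stood at 9.28 CPM against 18.9 to 41.4 CPM. The phosphatase gene CDC25A, which frees cyclin-dependent kinases from inhibition, stood at 10.1 CPM against 18.1 to 32.4 CPM. E2F1 stood at 36.1 CPM against 58.3 to 94.5 CPM, and E2F2 at 1.44 CPM against 2.62 to 6.62 CPM. For each of these the library lay outside the span of all others. Cyclin D1 (CCND1), which responds to growth signals before the other cyclins, did not follow: it had 794 CPM, the 12th value from the lowest, against a median of 742 CPM in the other 14.

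Licensing and helicase genes of the same library were low together. CDC6, which loads the helicase onto origins, stood at 19.8 CPM against 41.9 to 61.3 CPM, and CDC45, which activates the helicase, at 8.88 CPM against 20.1 to 33.9 CPM. The 6 subunits of the MCM helicase stood at 51.3% to 67.9% of their medians in the other 14, with MCM2 the lowest and MCM6 the highest of them. Geminin (GMNN), the inhibitor of licensing that accumulates after S phase begins, was the other exception among the G1/S genes, at 45.5 CPM and the 4th value from the lowest. In nucleotide supply, RRM2, the regulated subunit of ribonucleotide reductase, stood at 73.0 CPM against 137 to 235 CPM, and PCNA, the replication clamp, at 68.6 CPM against 95.7 to 147 CPM. In all, 19 of the 22 G1/S genes were under 70% of their other-library median, against 5 of the 30 G2/M genes.

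The mitotic genes of strongly adherent library 6 were, at the median, nearer to the other libraries. CDK1, the kinase that drives mitosis, stood at 68.3 CPM against 94.1 to 185 CPM, and KIF11, the motor that separates spindle poles, at 64.1 CPM against 80.3 to 138 CPM. FOXM1 stood at 73.4 CPM against 80.2 to 135 CPM. By contrast CCNB2, a mitotic cyclin, had 56.4 CPM, the 14th value from the lowest, and the spindle kinase gene AURKA had 101 CPM, the 13th. CCNB1, PLK1, TPX2 and KIF20A were at 94.2% to 97.1% of their medians in the other 14. By role, the median log2 difference was -1.22 over the E2F factors, -0.82 over the clamp and nucleotide genes, -0.80 over G1 and S cyclins and kinases and -0.71 over licensing genes. It was -0.55 for FOXM1, -0.53 over MKI67 and TOP2A, -0.31 over the spindle checkpoint and -0.31 over the kinetochore genes, -0.29 over spindle motors, -0.26 over the anaphase-promoting complex genes and -0.20 over G2 and mitotic cyclins and kinases.

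**Figure D2:**
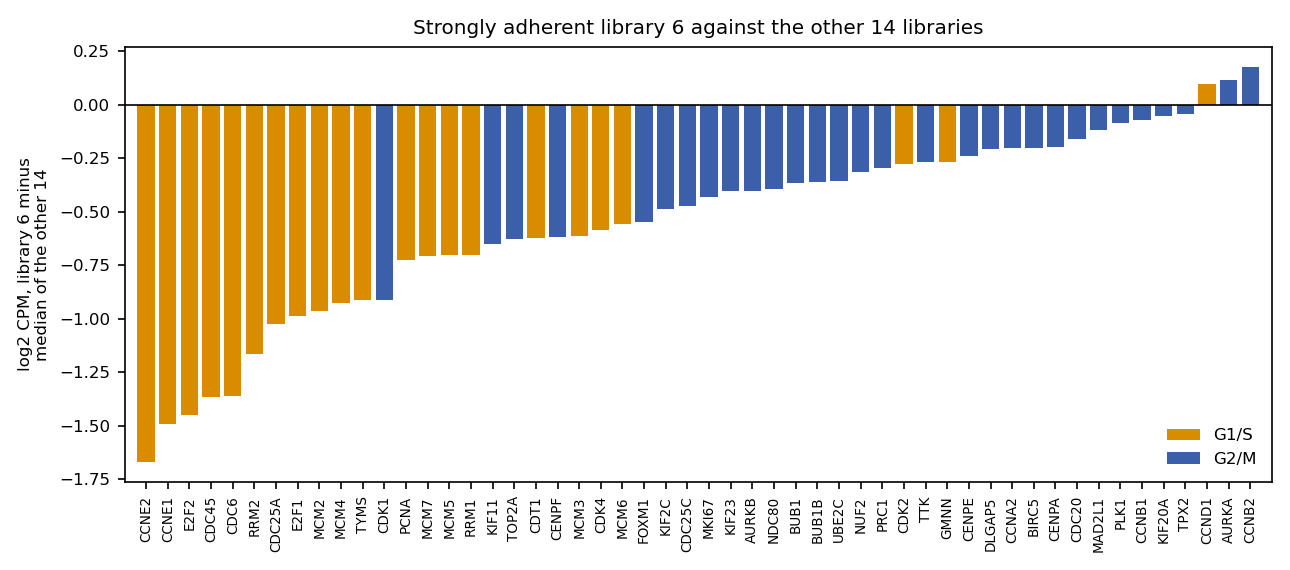
Log2 CPM of strongly adherent library 6 minus the median of the other 14 libraries for each of the 52 genes, ordered by value (bars, G1/S orange and G2/M blue). The 11 most negative bars are G1/S genes, from -1.67 for CCNE2 to -0.91 for TYMS, and CCND1, AURKA and CCNB2 have positive bars.

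Cell cycle genes outside the 52 had the same order in that library. Of 43 other G1/S genes 33 were lowest there (median log2 difference -0.71), as were 31 of 58 other G2/M genes (-0.36) and 4 of 14 genes of the pocket proteins and the DREAM repressor complex (-0.18). Of 8 tested replication-dependent histone genes 0 were lowest there (0.30). Other lists differed in this library as well, some of them also in the weakly adherent and unsorted libraries numbered 6. The 12 immediate early genes, which respond to tissue dissociation, were higher there by a median of 0.997 on the log2 scale. For 6 of 12 the value was the highest of the 15, where 13.4% of all genes were highest in this library. Their summed level was 2562.5 CPM, against 779 to 2551 CPM in the others. Over 16 tested muscle markers the median log2 difference was 5.12, with 0 lowest there. They summed to 413 CPM in it, against 6.08 to 2638 CPM in the others, with PVALB at 0. Over 8 fibroblast markers the median was -1.35, with 4 lowest there and a sum of 486 CPM against 569 to 1859 CPM, with THY1 at 0. Over 5 leukocyte markers the median was -1.63, with 3 lowest there. Their sum of 183 CPM, against 72.9 to 204 CPM, was mostly CD68, at 176 CPM there and 53.2 to 193 CPM in the others. Over 4 endothelial markers the median was 0.64, with 1 lowest there and a sum of 22.3 CPM against 7.99 to 26.1 CPM, with EMCN at 0. In weakly adherent and unsorted library 6 the fibroblast sums were 569 and 669 CPM, the endothelial sums 25.2 and 26.1 CPM and the muscle sums 152 and 931 CPM. Their mean log2 CPM over the G1/S genes was 6.03 and 6.17, against 5.20 in strongly adherent library 6. The 2551 CPM of the immediate early genes was in weakly adherent library 4, where that mean was 6.07. The part of any of these lists in the low G1/S levels of strongly adherent library 6 was not tested. Host reads of the mouse that align to human genes may be among all these counts, which was not tested.

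Strongly adherent library 5 had high values for many members. It was highest of the 15 for 9 G1/S and 7 G2/M genes, or 16 of 52, where 18.1% of all genes tested were highest in it. Its G2/M count, 7 of 30, is near that share. Unsorted library 5 had the highest mean over the G1/S genes, and weakly adherent library 6 was highest for 9 G2/M genes, where 10% of all genes were highest in it. Among the highest values of strongly adherent library 5 were MKI67 at 341 CPM, TOP2A at 414 CPM, the kinetochore gene CENPF at 258 CPM, MCM4 at 224 CPM and RRM2 at 235 CPM. The same library was lowest for GMNN, at 35.9 CPM, and for NDC80, at 39.1 CPM. Muscle markers summed to 2638 CPM there, with PVALB among the 18 at 0, against 152, 413 and 931 CPM in the weakly adherent, strongly adherent and unsorted libraries numbered 6. Whether the muscle RNA has a part in its cell cycle values was not tested.

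Library 6 also set the spread of the G1/S genes. The median standard deviation of log2 CPM was 0.32 over the G1/S genes and 0.19 over the G2/M genes with all 15 libraries. Without strongly adherent library 6 it was 0.20 and 0.19, against 0.23 over the 11234 genes in the same range of mean CPM, also without that library.

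**Figure D3:**
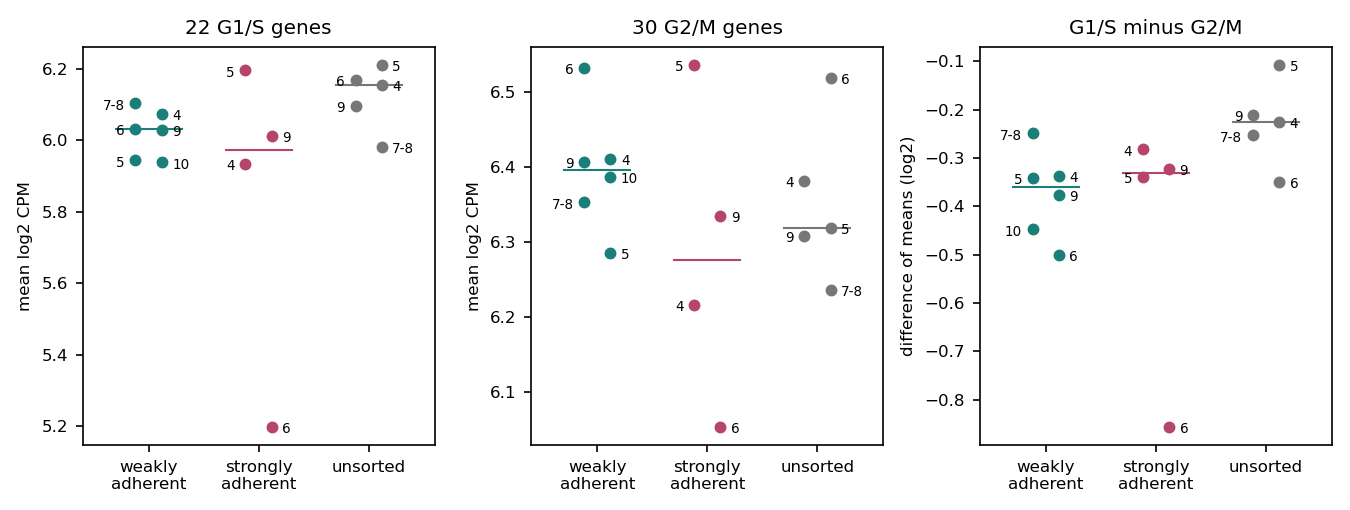
Mean log2 CPM of the 22 G1/S genes, of the 30 G2/M genes, and the difference of these means, for each library (points, labelled with the title number) by adhesion group, with the group median as a line. Strongly adherent library 6 is lowest in all panels, at 5.20 for G1/S, 6.05 for G2/M and -0.86 for the difference.

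The mean log2 CPM per library put both classes side by side. Over the G1/S genes it lay between 5.94 and 6.10 in weakly adherent libraries, at 5.93, 6.20, 5.20 and 6.01 in strongly adherent libraries 4, 5, 6 and 9, and between 5.98 and 6.21 in unsorted libraries. Over the G2/M genes it lay between 6.29 and 6.53 in weakly adherent libraries, at 6.22, 6.54, 6.05 and 6.33 in strongly adherent libraries 4, 5, 6 and 9, and between 6.24 and 6.52 in unsorted libraries. G1/S minus G2/M was -0.86 in strongly adherent library 6 and between -0.50 and -0.11 in the other 14. The groups overlapped in each of these measures.

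The first comparison, of tumours from weakly against those from strongly adherent cells, asks whether the adhesion class of the sorted cells is still seen in the proliferation genes of their tumours. None of the 52 genes passed edgeR's quasi-likelihood test (0 of 15190 genes, 0%, at an adjusted p under 0.05), and their smallest adjusted p was 0.99998. At an unadjusted p under 0.05 there were 2 of 52, TYMS and NDC80, against 2.41% of all genes. That count was 7 without strongly adherent library 5 (232 of 15310 genes) and 7 without strongly adherent library 9 (656 of 15360 genes). Leaving out weakly adherent library 5 gave 4 (268 of 15159 genes), and leaving out weakly adherent library 10 gave 5 (463 of 15129 genes). With the replicate block it was 6 (1030 of 15190 genes). With the group as the single term 0 genes were called by DESeq2 (402 at an unadjusted p under 0.05), by limma voom (354) and by limma-trend (331), and with the title number added as a replicate block DESeq2 called 30 genes but 0 of the 52. Fold changes were positive for 18 of 22 G1/S and 26 of 30 G2/M genes, against 46% of all genes. Their medians on the log2 scale were 0.11 and 0.10, against -0.02 over all genes.

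The G1/S direction changed with the strongly adherent libraries in the fit. Without library 6 10 of 22 G1/S genes were positive with a median of -0.06, and 22 of 30 G2/M genes with a median of 0.06. Without strongly adherent library 5 the counts were 20 of 22 and 30 of 30, with medians of 0.26 and 0.21. Without both, a setting chosen after the values had been seen, they were 16 of 22 and 27 of 30, with medians of 0.03 and 0.12 and 0 members at an unadjusted p under 0.05.

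Kinetochore gene NDC80, whose product ties microtubules to chromosomes, was the only one of the 52 whose groups did not overlap, where 0.29% of all genes did not. It stood at 53.1, 49.3, 63.3, 55.7, 54.5 and 52.4 CPM in weakly adherent libraries 4, 5, 6, 7-8, 9 and 10, against 47.9, 39.1, 40.2 and 43.2 CPM in strongly adherent libraries 4, 5, 6 and 9. Every weakly adherent value lay above every strongly adherent one. Its log2 fold change was 0.36 ± 0.10 (SE), with an edgeR adjusted p of 0.99998, and the group means were 54.7 ± 4.76 CPM for the 6 weakly adherent and 42.6 ± 3.95 CPM for the 4 strongly adherent libraries (SD). NUF2, its partner in the same complex, overlapped between the groups, with 32.4 to 54.4 CPM in weakly adherent and 31.0 to 44.2 CPM in strongly adherent libraries.

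TYMS, which encodes thymidylate synthase, stood at 40.2, 37.9, 38.0, 50.6, 40.9 and 26.1 CPM in weakly adherent libraries 4, 5, 6, 7-8, 9 and 10, against 27.9, 20.5, 20.1 and 36.7 CPM in strongly adherent libraries 4, 5, 6 and 9. Strongly adherent libraries 4 and 9 and weakly adherent library 10 lay within the other group's span. Its log2 fold change was 0.57 ± 0.19 (SE), the largest of the 52 here. E2F1 had 0.31 ± 0.16, PCNA 0.29 ± 0.15, MCM5 0.22 ± 0.15 and MCM3 0.21 ± 0.12. The checkpoint kinase gene BUB1 had 0.23 ± 0.11, AURKB, the kinase that corrects kinetochore attachments, 0.22 ± 0.11, CDC20, an activator of the anaphase-promoting complex, 0.21 ± 0.11, and PRC1, which bundles midzone microtubules, 0.20 ± 0.11. MKI67 had -0.14 ± 0.20 and TOP2A 0.01 ± 0.16, with 95% intervals from -0.57 to 0.28 and from -0.33 to 0.35.

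**Figure D4:**
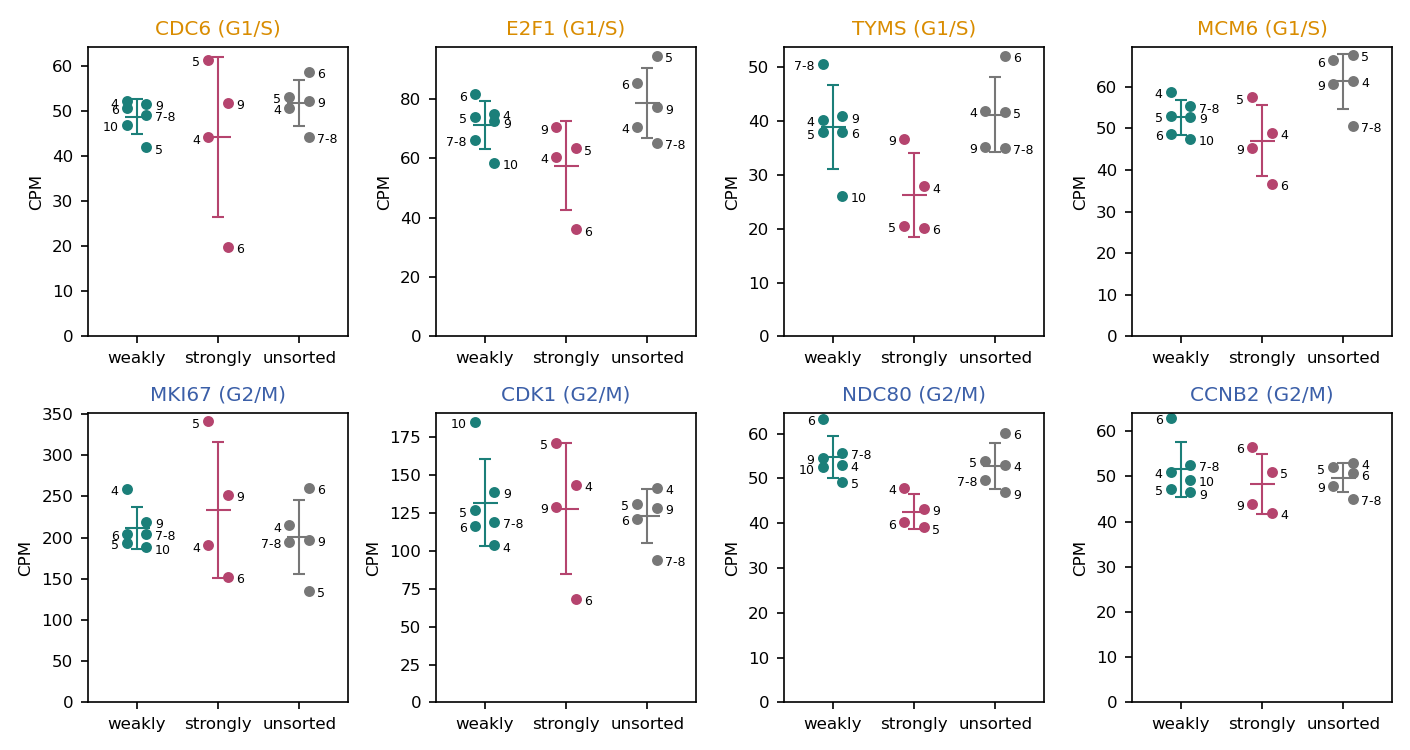
CPM of 4 G1/S genes (top row) and 4 G2/M genes (bottom row) in each library (points, labelled with the title number) by adhesion group, with the group mean (short line) and SD (bars). NDC80 lies between 49.3 and 63.3 CPM in the weakly adherent and between 39.1 and 47.9 CPM in the strongly adherent libraries, and strongly adherent library 6 is the lowest point for CDC6, E2F1, TYMS, MCM6 and CDK1.

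Pairing by title number gave directions that differed between numbers. The weakly adherent library was the higher for 21 of 22 G1/S and 30 of 30 G2/M genes in number 6, and for 15 and 25 in number 4. In number 9 it was higher for 10 G1/S and 24 G2/M genes, and in number 5 for 5 and 6. Median log2 ratios over the G1/S genes were 0.14, -0.22, 0.89 and -0.01 in numbers 4, 5, 6 and 9, and over the G2/M genes 0.20, -0.25, 0.49 and 0.09. Number 5 thus ran opposite to number 6 in both classes. In 4 of 4 pairs the weakly adherent library was the higher for 6 of the 52, NDC80, TYMS, E2F1, BUB1, PRC1 and BIRC5, against 5.17% of all genes. In the number 6 pair, where nearly all members were higher, 48.7% of all genes were. The share of members and that of all genes thus do not rest on like terms. PCNA was among 6 members that were higher in 1 of 4. With 4 pairs no two-sided sign-flip test could reach 0.05, and none was made.

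Weakly adherent against unsorted tumours asks whether tumours of that fraction differ from those of the whole population. None of the 52 passed (edgeR, 0 of 15190 genes, 0%), their smallest adjusted p was 0.9997, and 0 of 52 had an unadjusted p under 0.05, against 0.533% of all genes. With the group as the single term DESeq2 (96 at an unadjusted p under 0.05), limma voom (81) and limma-trend (87) called 0 too, as did DESeq2 with the replicate block. No member's groups lay apart, against 0.0724% of all genes. The classes pointed in different directions: fold changes were positive for 0 of 22 G1/S genes and 23 of 30 G2/M genes, against 49.9% of all genes, with medians of -0.09 and 0.05 against -0.00. The 52 genes were measured in the same libraries, so the signs of single genes do not count separately. Their first principal component held 53.1% of their variance over all 15 libraries, the strongly adherent ones included, against 51.8% over all genes tested. These components differ: 23.9% of the variance of the members' component lay between title numbers, against 90.1% for that of all genes.

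The values behind these signs were small beside their errors. MCM6 had the smallest p among the 52, with 52.7 ± 4.19 CPM (SD, n = 6) in weakly adherent and 61.3 ± 6.67 CPM (SD, n = 5) in unsorted tumours, a log2 fold change of -0.22 ± 0.11 (SE). MCM7 had -0.17 ± 0.14, MCM2 -0.16 ± 0.18, MCM5 -0.16 ± 0.14 and E2F1 -0.14 ± 0.15. Among mitotic genes CENPF had 0.20 ± 0.18, KIF20A, a cytokinesis motor, 0.16 ± 0.12, NUF2 0.10 ± 0.14 and TTK, the checkpoint kinase also called MPS1, 0.09 ± 0.11. MKI67 had 0.08 ± 0.19 with a 95% interval from -0.32 to 0.48, and TOP2A 0.11 ± 0.15 with one from -0.21 to 0.43. CENPF and MKI67 were lowest of the 15 in unsorted library 5, at 106 and 135 CPM, a library that was highest for 6 G1/S genes. It stood at 94.5 CPM for E2F1 and 67.6 CPM for MCM6, the highest of the 15 for both.

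Within title numbers the G1/S genes did not keep their direction. The weakly adherent library was the higher for 10, 1, 7, 18 and 6 of the 22 G1/S genes in numbers 4, 5, 6, 7-8 and 9, and for 19, 8, 14, 24 and 22 of the 30 G2/M genes. Number 7-8 was the pair in which most G1/S genes were higher in the weakly adherent library, with a median log2 ratio of 0.11. PRC1 alone of the 52 was higher in the weakly adherent library in 5 of 5 pairs, against 1.38% of all genes, and its 95.5, 90.5, 93.3, 78.3 and 90.8 CPM in weakly adherent libraries 4, 5, 6, 7-8 and 9 stood against 81.4, 82.8, 92.4, 78.0 and 81.4 CPM in their unsorted counterparts. The difference was under 1 CPM in numbers 6 and 7-8.

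Strongly adherent against unsorted tumours asks the same of the strongly adherent fraction. None of the 52 passed (edgeR, 0 of 15190 genes, 0%), with a smallest adjusted p of 0.9748, and with the group as the single term DESeq2 (631 at an unadjusted p under 0.05), limma voom (639) and limma-trend (560) called 0 as well. DESeq2 with the replicate block called 23 genes but 0 of the 52. At an unadjusted edgeR p under 0.05 there were 7 of 52, all lower in strongly adherent tumours, against 3.77% of all genes in either direction. That count was 4 without strongly adherent library 6 (1122 of 15331 genes) and 12 without strongly adherent library 5 (424 of 15310 genes). It was 10 without strongly adherent library 9 (849 of 15360 genes) and 3 without the libraries titled number 6 (1422 of 15255 genes). Without library 6 the share of members was near that of all genes, and without number 6 it was under it. With all libraries in the fit, the 7 were TYMS, E2F1, PCNA, MCM3, MCM5 and MCM6 of the G1/S class and NDC80 of the G2/M class. Fold changes were positive for 2 of 22 G1/S and 8 of 30 G2/M genes, against 53.7% of all genes, with medians of -0.23 and -0.06 against 0.02. The groups did not lie apart for any member, against 1.42% of all genes.

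TYMS stood at 27.9, 20.5, 20.1 and 36.7 CPM in strongly adherent libraries 4, 5, 6 and 9, against 41.9, 41.6, 52.1, 35.1 and 35.2 CPM in unsorted libraries 4, 5, 6, 7-8 and 9. The strongly adherent libraries 4, 5 and 6 lay below all unsorted ones, and library 9 lay among them. Its log2 fold change was -0.65 ± 0.20 (SE). MCM6 stood at 48.9, 57.4, 36.7 and 45.3 CPM in strongly adherent libraries 4, 5, 6 and 9, against 61.4, 67.6, 66.3, 50.7 and 60.6 CPM in unsorted libraries 4, 5, 6, 7-8 and 9, a log2 fold change of -0.38 ± 0.12. Only strongly adherent library 5 and unsorted library 7-8 overlapped there. E2F1 had -0.45 ± 0.17, MCM5 -0.39 ± 0.15, PCNA -0.35 ± 0.16 and MCM3 -0.31 ± 0.13.

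Among the mitotic genes NDC80 had -0.31 ± 0.10, at 42.6 ± 3.95 CPM (SD, n = 4) in strongly adherent and 52.7 ± 5.04 CPM (SD, n = 5) in unsorted tumours. CDC20 had -0.24 ± 0.12, BUB1 -0.23 ± 0.12, BIRC5, which encodes survivin of the chromosomal passenger complex, -0.22 ± 0.11, and AURKB -0.19 ± 0.12. MKI67 had 0.22 ± 0.21, with a 95% interval from -0.22 to 0.66, and TOP2A 0.11 ± 0.17, with one from -0.25 to 0.46. Both carried the opposite sign to most of their class, and both were highest of the 15 in strongly adherent library 5. The strongly adherent libraries serve in this comparison and in the first, so the low NDC80 and TYMS values in both are 1 observation.

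Here too the values changed with the libraries in the fit. Without strongly adherent library 6 the medians were -0.10 for G1/S, with 9 of 22 positive, and -0.02 for G2/M, with 11 of 30 positive. Without strongly adherent library 5 no member was positive (0 of 22 and 0 of 30), with medians of -0.38 and -0.14. Without both, 1 of 22 and 8 of 30 were positive, with medians of -0.14 and -0.09. Without the libraries titled number 6 they were 9 of 22 and 19 of 30, with medians of -0.09 and 0.02. Within title numbers the strongly adherent library was the higher for 1, 12, 0 and 7 of 22 G1/S genes in numbers 4, 5, 6 and 9, and for 4, 19, 1 and 18 of 30 G2/M genes. In 4 of 4 pairs the strongly adherent library was the lower for 14 of the 52, against 9.03% of all genes. These were E2F1, CDK4, CDC45, MCM3, MCM5, MCM6, MCM7 and PCNA of the G1/S class and NDC80, BUB1, AURKB, CDC20, CDC25C and UBE2C of the G2/M class. The number 6 pair is among the 4, and in it 22 of 22 G1/S and 29 of 30 G2/M genes were lower. Over all genes 50.4% were higher in that pair, so the share of members and that of all genes do not rest on like terms.

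**Figure D5:**
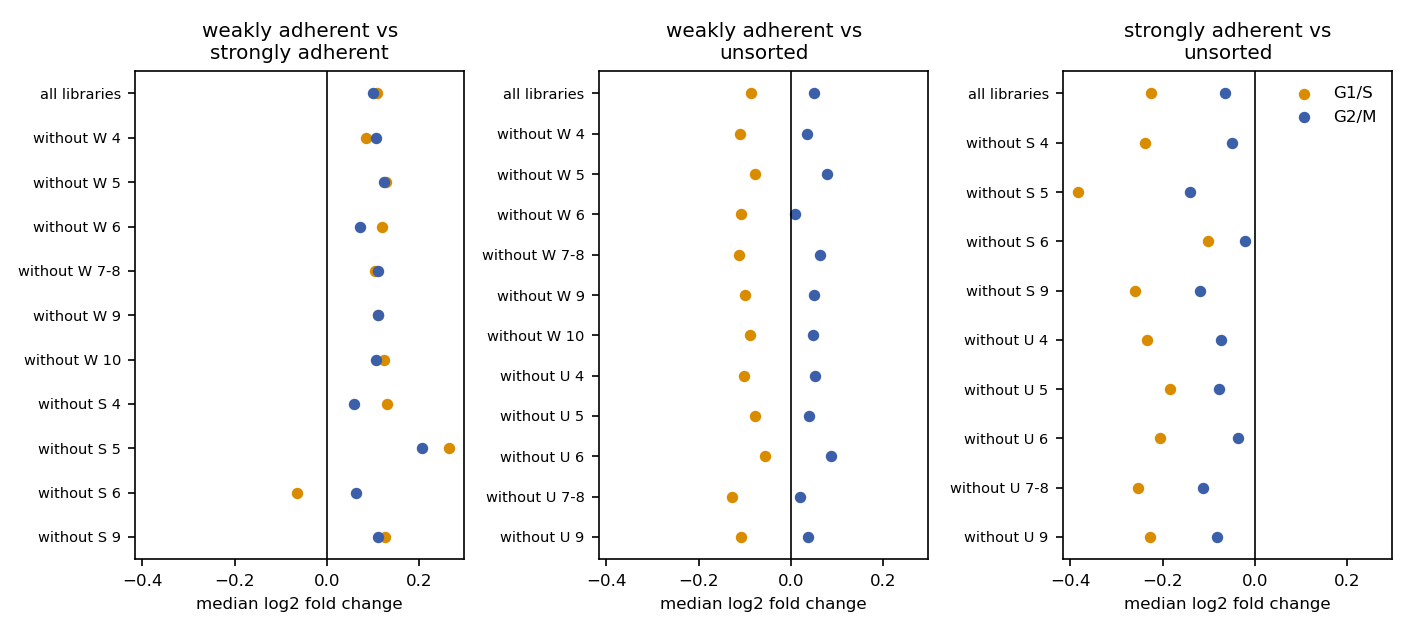
Median log2 fold change of the 22 G1/S genes (orange) and the 30 G2/M genes (blue) in each comparison, with all libraries (top) and with each library of the compared groups left out (W, S and U stand for weakly adherent, strongly adherent and unsorted, followed by the title number). Against strongly adherent tumours the weakly adherent G1/S median is 0.11 with all libraries, -0.06 without S 6 and 0.26 without S 5.

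The remaining genes that are named in each comparison are given by their group means. CCND1 averaged 726 ± 111 CPM in weakly adherent, 722 ± 79.2 in strongly adherent and 769 ± 156 in unsorted tumours (SD, n = 6, 4 and 5, as in the sentences that follow). Its kinase partner CDK4 averaged 177 ± 13.3, 160 ± 28.8 and 187 ± 30.7 CPM in that order of groups, CCNE1 16.9 ± 1.44, 16.9 ± 8.16 and 18.9 ± 1.57 CPM, and RRM2 156 ± 16.3, 157 ± 66.2 and 165 ± 17.5 CPM. CDK1 averaged 132 ± 28.7, 128 ± 43.5 and 123 ± 17.8 CPM, FOXM1 106 ± 20.5, 101 ± 24.8 and 109 ± 7.97 CPM, and the mitotic kinase gene PLK1 64.4 ± 12.5, 62.8 ± 8.16 and 68.4 ± 4.81 CPM. CCNB1 ran from 148 to 204 CPM in weakly adherent, 158 to 181 CPM in strongly adherent and 150 to 186 CPM in unsorted libraries. For CCNE1, RRM2 and CDK1 the strongly adherent SD was the largest of the groups, with library 6 the lowest and library 5 the highest strongly adherent value.

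The further cell cycle lists gave no call either. Between weakly and strongly adherent tumours 35 of 43 other G1/S and 44 of 58 other G2/M genes had positive fold changes, against 46% of all genes. Between weakly adherent and unsorted tumours 12 and 32 of them did, against 49.9% of all genes. Between strongly adherent and unsorted tumours 9 and 19 did, against 53.7%. Strongly adherent library 6, lowest of the 15 for 33 and 31 of these genes, is in the first and the last of these comparisons. CCNA1 encodes a cyclin of the A type mostly known from germ cells and some tumours. It averaged 8.91 ± 2.38 CPM (SD, n = 6) in weakly adherent and 4.23 ± 0.677 CPM (SD, n = 4) in strongly adherent tumours. Those groups did not overlap, where 0.29% of all genes did not. In unsorted tumours CCNA1 averaged 7.04 ± 2.02 CPM (SD, n = 5), and it passed in none of the comparisons.

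Title numbers were compared next, with the adhesion group in the fit, since number 6 differs from the others in many genes. Any difference among the 6 numbers was called for 7.9% of all genes and for 0 of the 52, whose smallest adjusted p was 0.166, for GMNN (edgeR). Number 6 against the mean of the other numbers was called for 27.9% of all genes and for 1 of the 52. That gene, AURKA, stood at 117, 101 and 114 CPM in weakly adherent, strongly adherent and unsorted library 6 and at 81.9 to 100 CPM in the other 12. Its log2 fold change was 0.28 ± 0.09 (SE, edgeR adjusted p = 0.0335), and all of number 6 lay above all other libraries. A share of 1 in 52 is under that of all genes.

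The 3 libraries of number 6 differed among themselves in these genes. GMNN stood at 72.5 and 84.8 CPM in weakly adherent and unsorted library 6, above the 35.9 to 66.7 CPM of the other 12 libraries, and at 45.5 CPM in strongly adherent library 6. MAD2L1, a checkpoint protein gene, stood at 126 and 130 CPM in weakly adherent and unsorted library 6, against 75.6 to 108 CPM in the other 12, and at 83.4 CPM in strongly adherent library 6. Without strongly adherent library 6, GMNN (0.53 ± 0.14) and MAD2L1 (0.49 ± 0.12) passed as higher in number 6 and AURKA did not (edgeR adjusted p = 0.0714). That fit called 12.9% of all genes. AURKA also missed the threshold without weakly adherent library 6 (0.0984) or unsorted library 6 (0.0695). The called members then numbered 6 and 2, while 27.9% and 22.1% of all genes were called. In each of these fits 1 called member was higher in number 6. Without weakly adherent library 6, CCND1 was higher and CDK4, E2F2, CDT1, MCM7 and UBE2C were lower. Without unsorted library 6, CCNB2 was higher and CCNE2 lower. Strongly adherent library 6 was in both fits. Compared with the weakly adherent and the unsorted library of its own number, strongly adherent library 6 was lower for 21 and 22 of the 22 G1/S genes and for 30 and 29 of the 30 G2/M genes. CCND1 was the G1/S exception against weakly adherent library 6, and CCNB2 the G2/M exception against unsorted library 6.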

How the data were processed

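The authors deposited raw counts per human gene symbol for 15 libraries, and a table of log2 values that equals log2 of the count over a size factor plus 1. Per the labels' protocols, a stranded Illumina TruSeq RNA kit and single-end reads were used. The tools cutadapt, FastQC, STAR, HTSeq and DESeq2 and the build hg19 come from the submitters' processing notes, and how strand was treated in counting is not stated there. The organism label is mouse, although the symbols and the build are human. Reference sequence or gene lengths of the human build were not used here, so none are printed.

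Counts were fitted in R 4.3.3 with edgeR 4.0.16 (TMM, filterByExpr, robust quasi-likelihood, group as the only term, two-sided, Benjamini-Hochberg over 15190 genes, threshold 0.05). These genes held 99.98% of the counts. CPM values are TMM-scaled, log2 CPM has a prior count of 2, and the SE is the absolute log2 fold change over the square root of F. The reads carry no stated molecular identifiers. Alternatives used other scalings and filters, DESeq2 1.42.0, limma 3.58.1 (voom, and trend on the deposited log2 values), 2 groups alone, each library left out, and the title number as a block. The contrasts were tested on simulated data, with planted changes larger than any fold change of the members between adhesion groups. Whether changes as small as those of the members would be called was not checked.

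The members, their classes and the further lists were chosen with earlier results of these data known. Named in every comparison were MKI67, TOP2A, CCND1, CDK4, CCNE1, E2F1, MCM2, PCNA, RRM2, CDK1, CCNB1, FOXM1, PLK1 and CDC20, and the 5 members of smallest p in each class. Some of these are given as levels only. Other genes are named where they were extreme in a library, chosen after their values were seen. Whether equal title numbers pair libraries was checked by correlating deviations from the group means over all genes. Every pair exceeded 0.1 between strongly adherent and unsorted libraries (0.525, 0.280, 0.750 and 0.364 for numbers 4, 5, 6 and 9), and not in the other comparisons. Strongly adherent libraries 4 and 5 nonetheless correlated better with unsorted libraries 7-8 and 4 than with those of their own number. No pair of libraries agreed within sampling noise.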

Additional observations from a re-analysis of the deposited data

Results flagged for a closer look

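Group spans of the named genes and class means were searched for a library whose gap to the next one took most of its group's range. Of 96 groups examined 4 were found, where chance gives about 1 in 20, so the number found is no more than chance gives. Strongly adherent library 6 had been singled out by earlier results of these data. The difference of G1/S and G2/M mean log2 CPM was -0.86 in strongly adherent library 6, far below the other 3 strongly adherent libraries. CCNB1 stood at 181.2 CPM in strongly adherent library 5, above the 158 to 160 CPM of the others of its group. CCND1 stood at 515 CPM in weakly adherent library 10, below the 708 to 819 CPM of its group. NUF2 stood at 44.6 CPM in unsorted library 4, above the 36.8 to 38.9 CPM of the other unsorted libraries.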

How the results depend on the processing

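Between adhesion groups the count of 0 genes and 0 members past the threshold held under every edgeR scaling, filter and left-out library, in DESeq2 and limma with the group alone, and in the edgeR fit that has a replicate block for the title number. DESeq2 with the replicate block called 30 genes between weakly and strongly adherent tumours, 0 between weakly adherent and unsorted ones and 23 between strongly adherent and unsorted ones, and 0 members in each. In edgeR the replicate block moved the genes at an unadjusted p under 0.05 to 1030, 172 and 1255, from 366, 81 and 572 without it, and changed no call. Equal numbers correlated at 0.0164 to 0.767 between weakly and strongly adherent and at 0.0328 to 0.683 between weakly adherent and unsorted libraries, and not every library correlated best with its own number. The signs of MKI67 and TOP2A depended on single libraries. With a library left out, MKI67 ran from -0.30 to 0.10 (weakly against strongly adherent), -0.035 to 0.19 (weakly adherent against unsorted) and -0.019 to 0.38 (strongly adherent against unsorted), and TOP2A from -0.16 to 0.22 in the first and -0.11 to 0.27 in the last. TOP2A had -0.11 between weakly and strongly adherent tumours without the libraries titled number 6. For title number 6, members called were 0 under upper-quartile scaling and 1 to 6 with a library left out, and genes called ran from 1981 to 4231. Any difference among title numbers was called for 3 genes without number 6 and for 3344 by DESeq2's likelihood ratio test. The cause of these shifts was not tested. Over all settings tried, 26, 25 and 31 of the 52 members changed the sign of their fold change at least once in the 3 comparisons.
Strongly adherent library 6 was lowest for 19 to 20 G1/S and 13 to 17 G2/M genes over 4 scalings, 3 of them chosen after seeing the data. The precision is set by groups of 4 to 6 libraries, and every member had at least 54 counts in each library.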
